A study of Sus scrofa with 6 samples.

Results

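SHISA2 is a gene for a small membrane protein, and its transcript stood far lower in the back muscle of Wannanhua pigs than in that of Yorkshire pigs. It is 1 of 17627 genes in the deposited table, where it is listed as ENSSSCG00000030113, and it was chosen by this measured difference in its level between the breeds. Its values, its fold change and its rank are therefore a description, with no test. The table covers longissimus dorsi, a muscle that runs along the spine, in 3 libraries from Wannanhua, a local Chinese breed, and 3 from Yorkshire, a lean commercial breed. All 6 are labelled as 5 months of age, although the series' design text speaks of piglets, and no treatment is named. The labels do not state that the 3 libraries of a breed came from separate animals. Each p-value below therefore sets the breed difference against the spread among these libraries, a spread that may be partly technical.

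Shisa proteins have a cysteine-rich outer part, a single span through the membrane and a tail rich in proline. The founding member was found in the frog head, where it holds immature Frizzled and FGF receptors back in the endoplasmic reticulum, so that fewer of them reach the cell surface and the cell answers less to Wnt and FGF signals. SHISA2 is known from the presomitic mesoderm and the somites, the embryonic blocks that give rise to the muscles of the trunk, and in mouse muscle progenitors it has been tied to the fusion of myoblasts into fibres. What it does in grown muscle is less well described. The values here are of transcript, not of protein.

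SHISA2 stood at 1.54, 6.87 and 10.6 FPKM in Wannanhua 1, 2 and 3. FPKM are fragments scaled to the length of the transcript and the mapped fragments of the library, so levels of different genes can be set side by side. The levels in Yorkshire 1, 2 and 3 were 227, 187 and 181 FPKM. The breeds did not overlap: the lowest Yorkshire library lay 17.2-fold above the highest Wannanhua library. The means were 6.33 ± 4.54 FPKM in Wannanhua and 198 ± 24.9 FPKM in Yorkshire (SD, n = 3 each), a ratio of 31.4. On the log2(FPKM + 1) scale, which understates changes at low levels, Wannanhua minus Yorkshire was -5.01.

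The libraries of a breed were not equally alike. In Yorkshire the highest level was 1.25 times the lowest, and Yorkshire 2 and 3 lay within a few FPKM of each other. In Wannanhua the highest level was 6.86 times the lowest, with Wannanhua 1 far below the other libraries of its breed. The SD of SHISA2 on the log2(FPKM + 1) scale was 1.14 in Wannanhua, larger than that of 98.6% of the 11791 genes tested, whose median SD there was 0.23. In Yorkshire it was 0.17, larger than that of 31.5% of them, against a median of 0.25. The ratio of the breed means was 22.7 without Wannanhua 1 and 47.2 without Wannanhua 3.

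**Figure D1:**
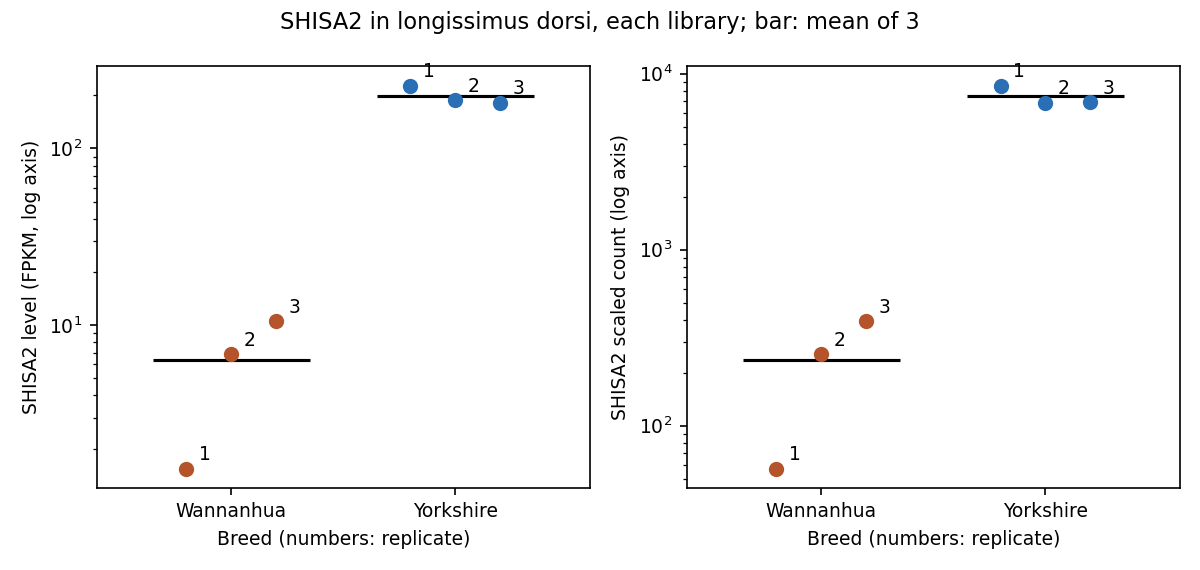
SHISA2 in each library as FPKM (left) and as the deposited scaled count (right), both on log axes, with replicate numbers beside the points and a bar at the mean of each breed. The Yorkshire points lie together near 198 FPKM, while the Wannanhua points spread from 1.54 to 10.6 FPKM, all below Yorkshire.

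The second measure in the table, a scaled count not divided by length, gave the same picture. Wannanhua 1, 2 and 3 had scaled counts of 57.0, 256 and 393. Those of Yorkshire 1, 2 and 3 were 8549, 6826 and 6881. The ratio of the breed means was 31.5 on this measure. A scaled count of 36.5 to 37.9 stood behind each FPKM in all 6 libraries, so both measures gave nearly the same ratios between libraries. The value of Wannanhua 1, which rests on the fewest scaled counts, is the least precise.

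Among all 17627 genes, SHISA2 ranked 391st, 420th and 444th by FPKM in Yorkshire 1, 2 and 3. In these libraries 97.5% to 97.8% of the genes were lower. It ranked 10485th in Wannanhua 1, 6149th in Wannanhua 2 and 4618th in Wannanhua 3. Set against the median tested gene of its own library, SHISA2 stood at 28.4 to 42.7 times that median in Yorkshire. In Wannanhua 1, 2 and 3 it stood at 0.24, 0.94 and 1.51 times the median. It was thus among the more abundant transcripts in all 3 Yorkshire libraries, while in Wannanhua it ran from below to somewhat above the median tested gene. By breed means, 412 tested genes, SHISA2 included, stood at 198 FPKM or more in Yorkshire, and 0 of them had a lower Wannanhua mean than SHISA2.

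By log2 fold change SHISA2 ranked sixth from the lowest of the 11791 tested genes. Its rank was 12 with a pseudocount of 0.1 FPKM, 10 with the abundant genes kept that are listed at 0 in some library, 8 on scaled counts and 4 to 8 with each library left out. It was number 4 among those whose breeds did not overlap and second among those with a gene symbol. The one named gene below it was HOXC10, a homeobox factor of the posterior body axis, at -5.29. The next named genes above it were SLC7A8, SNTB1 and SLC37A4, at -3.37, -3.31 and -3.05, so SHISA2 and HOXC10 stood well apart from the named genes that followed. Over all tested genes SLC7A8 ranked 13, so genes without a symbol lay between it and SHISA2.

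**Figure D2:**
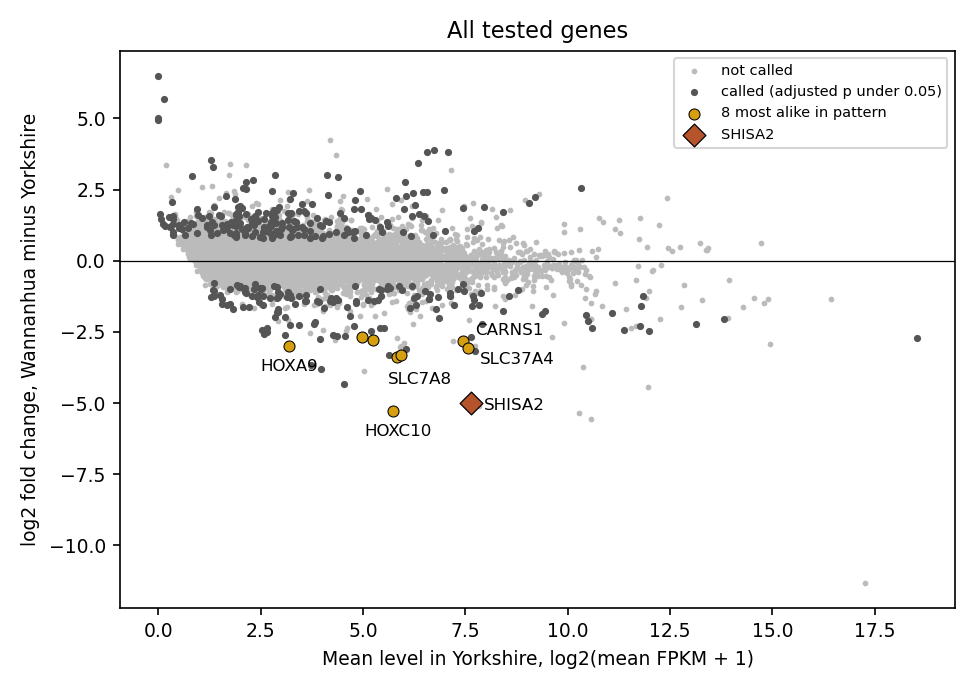
Each tested gene by its mean level in Yorkshire, log2(mean FPKM + 1), and its log2 fold change, Wannanhua minus Yorkshire. Dark points passed limma's adjusted threshold, gold points are the 8 named genes most alike to SHISA2 in pattern, and SHISA2 (diamond) lies at -5.01, below nearly all genes of its level.

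Across all tested genes, limma's moderated linear model called 360 of 11791 at an adjusted p under 0.05, or 3.05%. These were 208 higher (1.76%) and 152 lower (1.29%) in Wannanhua. SHISA2 was part of this fit and is among the 152, which its choice fixed, so its p is not given. At an unadjusted p under 0.05 limma had 2605 of 11791 genes, or 22.1%, and the unadjusted counts of the lists below are read against that share. After quantile normalization the calls were 138 higher and 200 lower, and the median log2 fold change of all genes moved from 0.12 to 0.00. The breeds' libraries did not overlap in 29.9% of tested genes, 20.3% with Wannanhua above and 9.63% with Wannanhua below. The 6 libraries had total scaled counts of 1.64e+07 to 1.93e+07. The count of 360 was 41, 30 and 524 without Wannanhua 1, 2 and 3, and 190, 58 and 27 without Yorkshire 1, 2 and 3. Those shares are the background for the counts that follow.

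The tissue matched its label by the fibre genes that could be named. Summed over 7 of 15 listed fibre markers with a value (CASQ1, TNNC2, ATP2A1, ACTN2, PYGM, NEB and DES), Yorkshire libraries stood at 41069 to 44514 FPKM. Wannanhua 1 and 2 stood at 21643 and 18839 FPKM, and Wannanhua 3 at 35489 FPKM. Wannanhua 3, the library with the highest SHISA2 level of its breed, was thus also the one nearest to Yorkshire in this sum. The sum leaned on TNNC2, its largest member in every library except Wannanhua 2, so it is not a measure of fibre content. The markers did not all go one way: in 3 of the 7 all Wannanhua libraries lay below Yorkshire (CASQ1, TNNC2 and PYGM), and in 3 all lay above (ACTN2, NEB and DES). The shares over all tested genes were 9.63% below and 20.3% above. TNNC2, the calcium-binding troponin of fast fibres, stood at 8289, 5648 and 18599 FPKM in Wannanhua 1, 2 and 3 and at 22034 to 26552 FPKM in Yorkshire. PYGM, the muscle glycogen phosphorylase, stood at 1612, 1692 and 4158 FPKM in Wannanhua 1, 2 and 3 and at 6602 to 7281 FPKM in Yorkshire. DES, the desmin of intermediate filaments, stood at 4917 ± 706 FPKM in Wannanhua against 2501 ± 389 in Yorkshire, and NEB, the giant protein along the thin filament, at 1018 ± 72.4 against 809 ± 167 FPKM (SD, n = 3). Between Wannanhua 1 and 2 the order differed: SHISA2 stood 4.46 times as high in Wannanhua 2 as in Wannanhua 1, while the fibre sum was lower in Wannanhua 2.

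Of the 7 fibre markers, 2 passed limma's threshold, where the background was 3.05%. CASQ1, calsequestrin, which binds stored calcium in fast fibres, was lower in Wannanhua (1552 ± 310 against 3646 ± 447 FPKM, SD, n = 3; log2 fold change -1.24, limma adjusted p = 0.0435). ACTN2, an actinin of the Z-disc, was higher (2231 ± 777 against 528 ± 51.2 FPKM, SD, n = 3; log2 fold change 2.01, limma adjusted p = 0.0312). Without a single library both calls were lost in the same 5 cases. The limma adjusted p of CASQ1 was 0.150, 0.149, 0.0567, 0.119 and 0.174 without Wannanhua 1 or 2 or Yorkshire 1, 2 or 3. That of ACTN2 was 0.105, 0.120, 0.0549, 0.0777 and 0.122. Both were lost with no filter on low values (limma adjusted p = 0.0702 and 0.0546), and CASQ1 also after quantile normalization and with the replicate number as a block (limma adjusted p = 0.115 and 0.0743). The part of fibre make-up in the SHISA2 difference was not tested.

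Markers of other cells of muscle were summed in the same way, since in bulk tissue fewer cells of a type and less RNA per cell cannot be told apart. Endothelial markers (8 of 12 with a value) stood at 67.5 to 98.0 FPKM in Wannanhua and 67.8 to 81.2 in Yorkshire. Fibroblast markers (7 of 12) stood at 310 to 391 and 326 to 801 FPKM, macrophage markers (7 of 12) at 16.9 to 19.8 and 12.6 to 25.8 FPKM, and tendon markers (9 of 10) at 25.4 to 44.1 and 14.1 to 111 FPKM. Red cell markers (5 of 10) stood at 43.7 to 144 and 15.8 to 93.9 FPKM. The sums of those 5 lists overlapped between the breeds, as did that of satellite cells and myoblasts (13 of 19), at 137 to 217 and 121 to 199 FPKM.

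Among the other lists given here, 2 had sums that did not overlap between the breeds. Smooth muscle and pericyte markers (10 of 12) stood at 4634 to 5926 FPKM in Wannanhua and at 2336 to 3050 FPKM in Yorkshire, most of it DES, which muscle fibres make as well. Adipocyte markers (7 of 12) stood at 381 to 581 and 1310 to 1770 FPKM, most of it GPD1, an enzyme that muscle fibres also make. GPD1 was the one called of 5 tested members, lower in Wannanhua (376 ± 91.8 against 1389 ± 251 FPKM, SD, n = 3; log2 fold change -1.90, limma adjusted p = 0.0223). Its limma adjusted p was 0.0753 and 0.0988 without Wannanhua 1 or 2, and 0.0504 and 0.0999 without Yorkshire 2 or 3. CFD, adipsin, stood at 66.8 ± 6.11 against 81.1 ± 5.41 FPKM (SD, n = 3), also with no overlap. The lipid droplet genes PLIN1, PLIN4 and CIDEC overlapped between the breeds, with PLIN1 at 5.77 to 7.52 FPKM in Wannanhua and 0.42 to 5.98 in Yorkshire. The adipocyte receptor ADRB3 was listed at 0 in 5 of 6 libraries. No listed marker with a value was at 0 in all 6 libraries. The part of these cells in the SHISA2 difference was not tested.

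Of 10 other Shisa family genes listed, 2 had a value under their symbol, and 1 was tested. SHISA5, a family member linked to cell death in the endoplasmic reticulum, stood at 12.1, 11.5 and 15.0 FPKM in Wannanhua 1, 2 and 3. The levels in Yorkshire 1, 2 and 3 were 13.0, 13.4 and 11.04 FPKM, and the breeds overlapped. Its log2 fold change was 0.04 with a 95% interval of -0.38 to 0.45 (limma adjusted p = 0.924, unadjusted p = 0.841), and it turned negative after quantile normalization. SHISAL2B was listed at 0 in 5 libraries and at 0.53 FPKM in Yorkshire 1. In Yorkshire the level of SHISA2 was far above that of SHISA5, while in Wannanhua it was below it in every library.

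Frizzled receptors, which the founding Shisa protein holds back, were read together with Wnt co-receptors and related receptors. Holding back is described above for Frizzled and FGF receptors only, not for LRP5, LRP6 or RYK. Of 17 Frizzled receptors and co-receptors listed, 15 had a value, 9 were tested and 1 was called, higher in Wannanhua. The median log2 fold change was -0.09, against 0.12 over all genes. FZD4, a Frizzled of vessels and muscle, stood at 13.1, 19.8 and 11.9 FPKM in Wannanhua 1, 2 and 3 and at 9.42, 15.4 and 11.5 FPKM in Yorkshire 1, 2 and 3 (95% interval of the log2 fold change -0.32 to 0.87). FZD7, the receptor of WNT7A on satellite cells, stood at 3.93 ± 0.67 and 4.55 ± 2.23 FPKM (SD, n = 3; 95% interval -0.77 to 0.55). The co-receptor LRP6 stood at 5.76 ± 0.995 and 7.11 ± 3.51 FPKM (SD, n = 3; 95% interval -0.92 to 0.56). RYK, a co-receptor and the most abundant of the list, stood at 17.6 ± 1.85 and 18.7 ± 1.36 FPKM (SD, n = 3). In all 4 the breeds overlapped.

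The called member was LRP5, the other co-receptor of canonical Wnt signalling. It stood at 12.2, 16.5 and 9.86 FPKM in Wannanhua 1, 2 and 3 and at 4.20, 6.02 and 5.64 FPKM in Yorkshire 1, 2 and 3. The breeds did not overlap. The difference on the log2 scale was 1.12 ± 0.23 (SE; limma adjusted p = 0.0495, 0.0353 to 0.156 over 14 alternatives), and 3 of those 14 kept the call. Without Wannanhua 1 or 2 the limma adjusted p was 0.153 and 0.151, and without Yorkshire 1, 2 or 3 it was 0.0830, 0.112 and 0.156. It was 0.0513 after quantile normalization and 0.0616 with the replicate block.

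Over the 4 Wnt lists together, 57 of 90 genes had a value, 36 were tested and 1, LRP5, was called, or 10 at an unadjusted p under 0.05. In 12 of the 36 the breeds did not overlap, 9 with Wannanhua above, where the shares over all tested genes were 29.9% and 20.3%. The ligand and agonist list had 0 of 6 tested genes called by limma (3 at an unadjusted p under 0.05) and a median of 0.18. RSPO3, a secreted agonist that keeps Frizzled receptors on the surface, was its most abundant member. It stood at 17.3, 14.9 and 2.30 FPKM in Wannanhua 1, 2 and 3 and at 1.92, 1.33 and 2.86 FPKM in Yorkshire 1, 2 and 3. Wannanhua 3 lay among the Yorkshire values (limma adjusted p = 0.164, and 0.00715 without Wannanhua 3).

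Secreted and membrane inhibitors of Wnt had 0 of 6 tested genes called (4 at an unadjusted limma p under 0.05), with a median of 1.07. FRZB, a secreted Frizzled-like decoy and the most abundant of them, stood at 22.8, 5.61 and 16.8 FPKM in Wannanhua 1, 2 and 3 and at 36.3, 27.1 and 41.6 FPKM in Yorkshire 1, 2 and 3. It lay below Yorkshire in all 3 Wannanhua libraries, with a limma adjusted p of 0.148. In 3 others of the 6, KREMEN1, SFRP5 and SFRP1, all Wannanhua libraries lay above Yorkshire, at means of 7.84 against 2.34, 2.99 against 0.92 and 2.85 against 0.92 FPKM (limma adjusted p = 0.122, 0.0543 and 0.118). Over all tested genes the share with Wannanhua above in this way was 20.3%. The relay and target list had 0 of 15 called (2 at an unadjusted limma p under 0.05), with a median of 0.15. CTNNB1, beta-catenin, stood at 73.8 ± 2.97 and 59.3 ± 0.82 FPKM (SD, n = 3; limma adjusted p = 0.275). AXIN2, a feedback target often read as a gauge of canonical Wnt signalling, stood at 2.03, 1.92 and 1.96 FPKM in Wannanhua 1, 2 and 3. Yorkshire 1, 2 and 3 had 1.0, 0.62 and 0.85 FPKM, with no overlap (log2 fold change 0.70 ± 0.17 SE, limma adjusted p = 0.0686). DVL1, the adaptor below Frizzled and the most abundant of the list, stood at 102 ± 30.1 and 103 ± 25.4 FPKM (SD, n = 3).

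**Figure D3:**
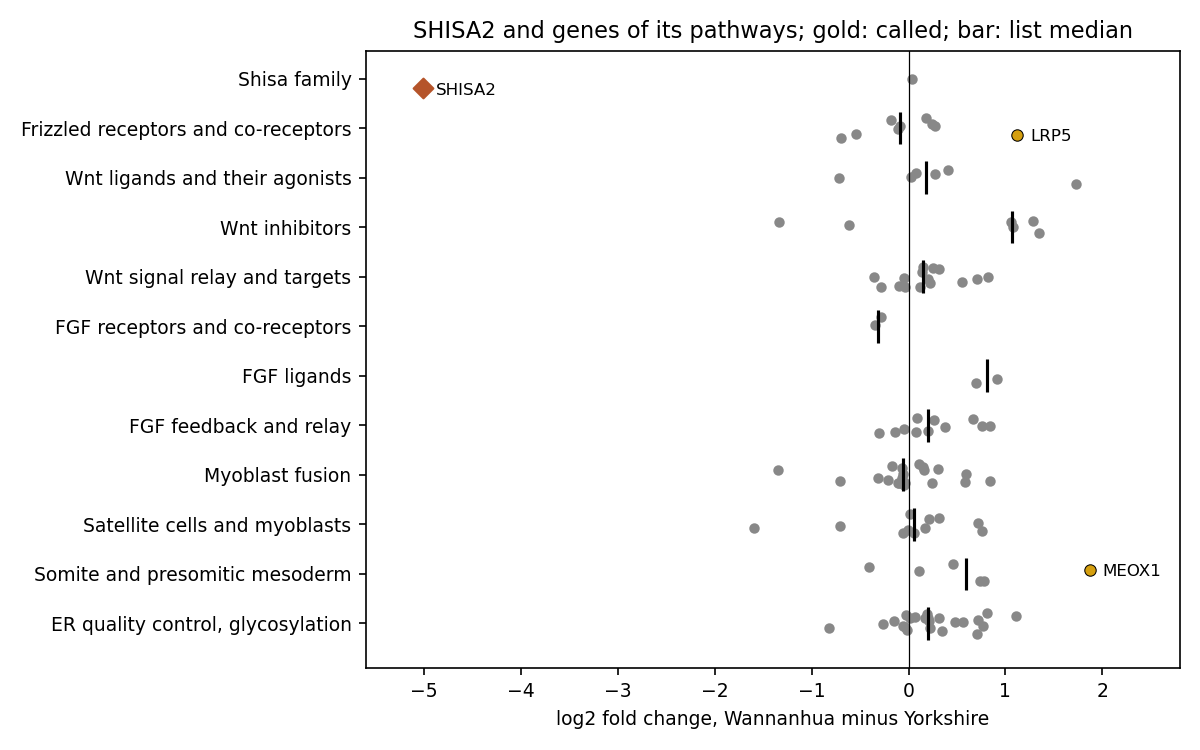
Log2 fold change, Wannanhua minus Yorkshire, of each tested gene in the lists around SHISA2, 1 point a gene, with a bar at the median of each list except the Shisa family. Gold points passed limma's adjusted threshold (LRP5 and MEOX1), and SHISA2 (diamond, -5.01, shown as a description) lies far to the left of every other gene shown.

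For the FGF pathway, 23 of 47 listed genes had a value, 15 were tested and 0 were called by limma (3 at an unadjusted p under 0.05). The median log2 fold change was 0.21. FGFR1 stood at 3.61, 5.32 and 5.41 FPKM in Wannanhua 1, 2 and 3 and at 4.6, 7.94 and 5.73 FPKM in Yorkshire 1, 2 and 3 (95% interval of the log2 fold change -0.84 to 0.27). FGFR4, a receptor of myogenic cells, stood at 1.62 ± 0.50 and 2.37 ± 0.81 FPKM (SD, n = 3; 95% interval -0.90 to 0.20). Both overlapped between breeds. The ligand FGF1, the most abundant of its list, stood at 5.58 ± 5.06 and 2.40 ± 0.46 FPKM (SD, n = 3), with Wannanhua 2 high at 11.4. SPRY1, a feedback inhibitor that FGF signalling induces, stood at 8.13, 12.9 and 11.9 FPKM in Wannanhua 1, 2 and 3 and at 4.43, 6.53 and 7.21 FPKM in Yorkshire 1, 2 and 3 (limma adjusted p = 0.129). GRB2, the adaptor between receptor and Ras, stood at 28.2 ± 0.55 and 29.2 ± 1.18 FPKM (SD, n = 3). FGF2 was not analysed here.

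Per length, SHISA2 in Yorkshire, at 198 FPKM, stood well above each tested receptor and co-receptor of these lists, such as FZD4 at 12.1, FGFR1 at 6.09 and LRP5 at 5.29 FPKM. In Wannanhua, at 6.33 FPKM, it stood below FZD4 at 14.9 and LRP5 at 12.9 FPKM and within its own spread of FGFR1 at 4.78 FPKM. By breed means, SHISA2 thus stood above FZD4 and LRP5 in Yorkshire and below them in Wannanhua. Wannanhua 3 was an exception for LRP5, which at 9.86 FPKM lay just under SHISA2 at 10.6 FPKM. RYK crossed in the same way, at 18.7 FPKM in Yorkshire and 17.6 in Wannanhua. The other tested receptors lay below SHISA2 by the Wannanhua means too. These were LRP6 at 5.76, FZD7 at 3.93, SMO at 2.75, FZD6 at 2.68, FGFR4 at 1.62, MUSK at 1.30 and FZD2 at 0.91 FPKM. In Wannanhua 1, where SHISA2 stood at 1.54 FPKM, that order did not hold for most of them. LRP6 at 4.67, FZD7 at 4.70, SMO at 3.06, FZD6 at 2.35 and FGFR4 at 2.18 FPKM lay above SHISA2 there, as did FGFR1 at 3.61 FPKM. MUSK at 0.76 and FZD2 at 0.57 FPKM lay below SHISA2 in that library.

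Genes of myoblast fusion, the step in which SHISA2 has been studied in mouse cells, showed 0 of 20 tested members called by limma (3 at an unadjusted p under 0.05). Of 37 listed symbols, 26 had a value, and the median log2 fold change was -0.05. CDC42, a small GTPase of the actin cytoskeleton and the most abundant member, stood at 126, 122 and 132 FPKM in Wannanhua 1, 2 and 3. Yorkshire 1, 2 and 3 had 128, 139 and 132 FPKM (95% interval of the log2 fold change -0.44 to 0.30). MYMK, the membrane activator of fusion, stood at 1.6 ± 1.25 and 1.5 ± 0.28 FPKM (SD, n = 3). MSTN, myostatin, which restrains muscle growth, had the smallest p of the list. It stood at 4.07, 4.003 and 7.86 FPKM in Wannanhua 1, 2 and 3 and at 9.94, 17.9 and 16.7 FPKM in Yorkshire 1, 2 and 3, with no overlap. On the log2 scale MSTN differed by -1.34 ± 0.31 (SE; limma adjusted p = 0.0639), and it passed after quantile normalization and without Wannanhua 3 (limma adjusted p = 0.0401 and 0.0317). RAC1 was not analysed here.

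Satellite cell and myoblast genes, a population in which SHISA2 is known, had 0 of 11 tested members called by limma (4 at an unadjusted p under 0.05) and a median of 0.06. MYOD1, the myogenic factor of activated satellite cells, stood at 11.5, 1.90 and 3.33 FPKM in Wannanhua 1, 2 and 3 and at 12.4, 22.6 and 12.6 FPKM in Yorkshire 1, 2 and 3 (limma adjusted p = 0.136). Wannanhua 1 had the highest MYOD1 and the lowest SHISA2 level of its breed. The breeds did not overlap in 4 of the 11, against 29.9% of all tested genes, and these 4 went both ways. MYOD1 and CDH15, the M-cadherin of satellite cells, lay below Yorkshire, the latter at 6.82 ± 1.58 against 11.8 ± 2.84 FPKM (SD, n = 3; limma adjusted p = 0.138). MYF5, an early myogenic factor, lay above it at 2.08 ± 0.82 against 0.90 ± 0.63 FPKM (SD, n = 3; limma adjusted p = 0.224), as did SPRY1. MYF6, a myogenic factor of fibres and the most abundant of the list, stood at 141 ± 47.1 and 112 ± 36.3 FPKM (SD, n = 3). PAX7 was not analysed here.

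Of 22 genes of the presomitic mesoderm and somites, 13 had a value, 6 were tested and 1 was called, higher in Wannanhua, where the background for higher genes was 1.76%. The median log2 fold change was 0.60, against 0.12 over all genes. At an unadjusted limma p under 0.05 there were 4 of the 6, the called gene included, against 22.1% of all tested genes. The breeds did not overlap in 5 of the 6, 4 with Wannanhua above, where the shares over all tested genes were 29.9% and 20.3%. The called gene was MEOX1, a homeobox factor of the somite. It stood at 12.6, 11.5 and 3.91 FPKM in Wannanhua 1, 2 and 3 and at 1.29, 1.96 and 1.52 FPKM in Yorkshire 1, 2 and 3, with no overlap. On the log2 scale MEOX1 differed by 1.87 ± 0.39 (SE; limma adjusted p = 0.0499, 0.00433 to 0.169 over 13 alternatives), and 3 of those 13 kept the call. Without Wannanhua 1 or 2 the limma adjusted p was 0.157 and 0.169, and without Yorkshire 1, 2 or 3 it was 0.101, 0.112 and 0.163. It was 0.0584 after quantile normalization and 0.0555 with the replicate block. The direction was opposite to that of SHISA2.

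The endoplasmic reticulum is where the founding Shisa protein holds receptors back. Of 28 listed genes of quality control and glycosylation in the endoplasmic reticulum, 23 were tested and 0 were called by limma (5 at an unadjusted p under 0.05). Their median was 0.20. In 6 of 23 the breeds did not overlap, all with Wannanhua above, against 20.3% of all tested genes. The chaperone HSPA5 stood at 54.5 ± 11.9 and 55.0 ± 7.02 FPKM (SD, n = 3; 95% interval of the log2 fold change -0.53 to 0.47). The most abundant member was DDOST, a subunit of the enzyme that attaches N-linked sugars. It stood at 94.7, 117 and 89.6 FPKM in Wannanhua 1, 2 and 3 and at 67.1, 50.6 and 53.6 FPKM in Yorkshire 1, 2 and 3 (limma adjusted p = 0.0721).

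The genes beside SHISA2 on its chromosome were read from the order of RefSeq protein-coding genes in assembly Sscrofa11.1, since the deposited table names no positions. Of the 10 on each side, 9 of 20 matched a row by symbol, 8 were tested and 0 were called by limma (2 at an unadjusted p under 0.05). The genes directly next to SHISA2 had no match on either side. Counted from SHISA2, the nearest tested genes were RNF6 at place 2 and MIPEP at place -5. The log2 fold changes of the 8 ran from -0.25 to 0.91, with a median of 0.29. In 4 of the 8 the breeds did not overlap, all with Wannanhua above, against 20.3% of all tested genes. On the nearer side, RNF6, a ubiquitin ligase, stood at 3.17, 4.07 and 2.97 FPKM in Wannanhua 1, 2 and 3 and at 2.43, 2.62 and 2.21 FPKM in Yorkshire 1, 2 and 3 (95% interval of the log2 fold change -0.05 to 0.77). CDK8, a kinase of the Mediator complex, stood at 5.68 ± 1.95 and 4.90 ± 1.4 FPKM (SD, n = 3; 95% interval -0.51 to 0.84). WASF3, an actin regulator, stood at 1.87 ± 0.60 and 1.78 ± 0.40 FPKM (SD, n = 3; 95% interval -0.47 to 0.54). The small positive values of CDK8 and WASF3 turned negative after quantile normalization.

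Further out on that side, the deubiquitinase USP12 stood at 6.17 ± 0.77 and 4.64 ± 0.34 FPKM (SD, n = 3; 95% interval -0.05 to 0.73). GTF3A, a factor for 5S ribosomal RNA genes, stood at 2.64 ± 0.40 and 3.32 ± 0.54 FPKM (SD, n = 3; 95% interval -0.67 to 0.18). On the other side, MIPEP, a mitochondrial peptidase, stood at 6.89 ± 4.14 and 5.43 ± 2.65 FPKM (SD, n = 3; 95% interval -0.74 to 1.22). FGF9, a ligand of FGF receptors, stood at 2.13, 3.97 and 2.28 FPKM in Wannanhua 1, 2 and 3 and at 0.88, 1.15 and 0.90 FPKM in Yorkshire 1, 2 and 3 (log2 fold change 0.91 ± 0.22 SE, limma adjusted p = 0.0734). MICU2, a regulator of the mitochondrial calcium uniporter, stood at 24.6 ± 3.53 and 13.3 ± 2.15 FPKM (SD, n = 3; limma adjusted p = 0.0611, and 0.0492 with a filter at 5 FPKM). None of these 8 genes had an interval that reached below -0.74, and SHISA2 lay at -5.01.

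**Figure D4:**
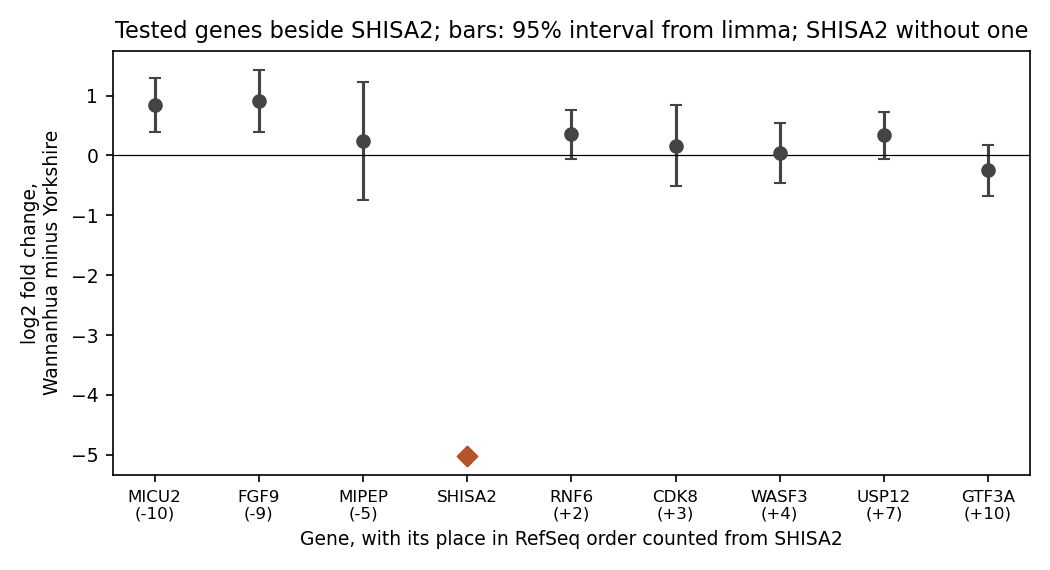
Log2 fold change, Wannanhua minus Yorkshire, of the 8 tested genes beside SHISA2, in RefSeq order with each gene's place counted from SHISA2, and 95% intervals from limma. All 8 lie between -0.25 and 0.91, while SHISA2 (diamond, drawn without an interval because it was chosen for its difference) lies at -5.01.

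The genes most alike to SHISA2 in pattern were found by distance. Each gene's log2(FPKM + 1) values over the 6 libraries were centred on their own mean, and the root mean square difference from the SHISA2 profile was taken. The median distance of all tested genes was 2.66 on the log2 scale. The points share their libraries, so likeness here rests mostly on the difference between breeds, and these genes carry no test. The 8 nearest named genes were HOXC10, SLC7A8, SLC37A4, SNTB1, CARNS1, HOXA9, LYSMD2 and NTMT2, at distances of 0.62 to 1.20. A further 4 genes without a symbol lay among the nearest 12.

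HOXC10 was the nearest, at 0.62. It was listed at 0 in Wannanhua 1 and 2, stood at 1.24 FPKM in Wannanhua 3 and at 34.6, 68.1 and 54.0 FPKM in Yorkshire 1, 2 and 3. HOXA9, another posterior homeobox gene, stood at 0 to 0.35 FPKM in Wannanhua and 6.44 to 9.49 FPKM in Yorkshire. SLC37A4, which carries glucose 6-phosphate into the endoplasmic reticulum, stood at 14.7, 18.0 and 38.1 FPKM in Wannanhua 1, 2 and 3 and at 198, 182 and 181 FPKM in Yorkshire 1, 2 and 3. Its Yorkshire levels lay close to those of SHISA2, and its Wannanhua levels were higher. CARNS1, which makes carnosine, a buffering dipeptide of fast muscle, stood at 12.9, 24.003 and 39.6 FPKM in Wannanhua 1, 2 and 3 and at 168 to 178 FPKM in Yorkshire. Like SHISA2, it was lowest in Wannanhua 1 and highest of its breed in Wannanhua 3.

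SLC7A8, an exchanger of neutral amino acids, stood at 2.42, 2.32 and 11.4 FPKM in Wannanhua 1, 2 and 3 and at 34.2 to 74.3 FPKM in Yorkshire. SNTB1, a syntrophin of the dystrophin complex, stood at 2.79, 2.79 and 13.5 FPKM in Wannanhua 1, 2 and 3 and at 39.4 to 79.6 FPKM in Yorkshire. LYSMD2 stood at 1.48, 2.99 and 15.3 FPKM and NTMT2, a methyltransferase of protein N-termini, at 1.52, 3.07 and 10.4 FPKM in the same 3 Wannanhua libraries. In Yorkshire they stood at 32.9 to 43.3 and 29.8 to 32.1 FPKM. In 7 of the 8, all but HOXA9, Wannanhua 3 was the highest Wannanhua library, as it was for SHISA2. In none of the 8 did the breeds overlap, where the share of all tested genes without overlap and with Wannanhua below was 9.63%. Both traits were largely set by the choice of these genes for their likeness to SHISA2 in the same libraries.

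**Figure D5:**
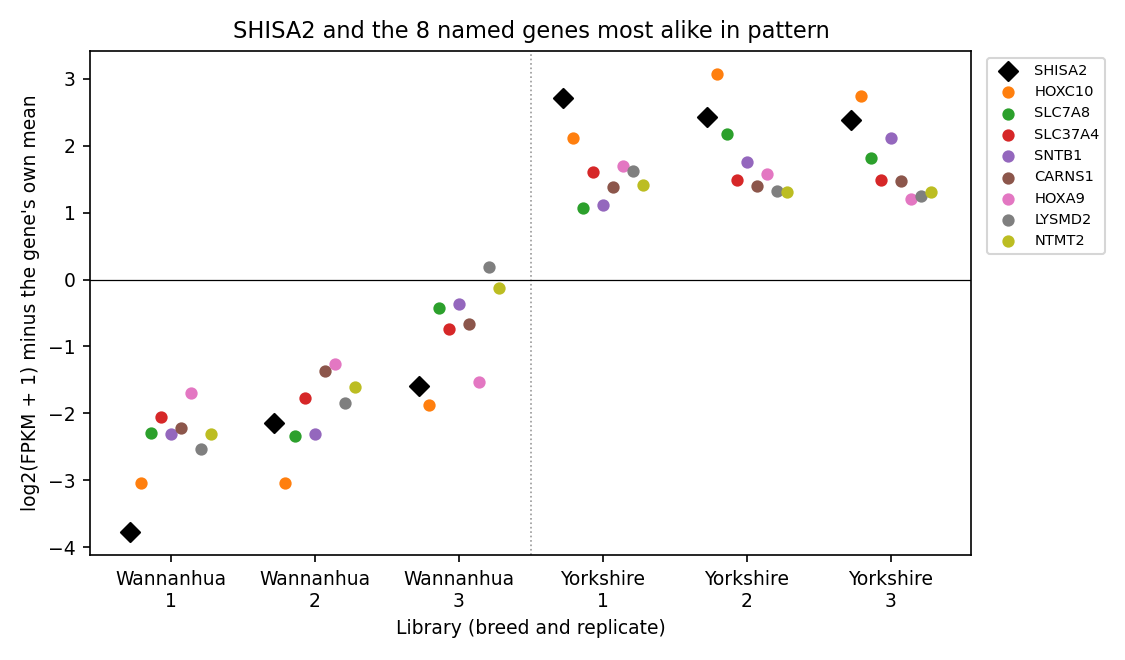
Log2(FPKM + 1) minus the gene's own mean in each library for SHISA2 (diamonds) and the 8 named genes nearest to it in pattern (circles), with Wannanhua left of the dotted line and Yorkshire right of it. SHISA2 is the lowest of the 9 in Wannanhua 1, and apart from HOXC10 the other genes come nearer to their mean than SHISA2 does in Wannanhua 3.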

How the data were processed

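Poly-A RNA of longissimus dorsi was sequenced as paired-end TruSeq libraries, with no step that marks strand, per the labels' protocols. CASAVA 1.7, TopHat2 2.0.6 and the build Sscrofa10.2 are named, without a role, in the submitters' processing notes, and no source used here names the counter or the annotation. The table the authors deposited holds FPKM and a value headed as a count. The authors' deposited count values are not whole and were taken as a signal scaled by a factor per library, so no count test was run. Symbols matched 10384 of 17627 Ensembl identifiers.

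Genes were kept at 1 FPKM or more in at least 3 of 6 libraries. A further 7 genes were left out because a library with 0 stood beside one with a scaled count of 10000 or more. The 11791 others were fitted on log2(FPKM + 1) by limma 3.58.1 in R 4.3.3, with breed as the term and trend and robust settings. P-values are two-sided with Benjamini-Hochberg adjustment over all tested genes. The fit was also run on simulated data with 200 changed genes and independent noise for each gene, and no result here rests on that run. Named genes were SHISA2, its family, a fixed set of receptors and muscle genes, called and most abundant members of each list, genes next to SHISA2 by rank and on its chromosome, and the 8 nearest in pattern. FRZB and RSPO3 fall under this rule as most abundant members, while HSPA5, MSTN, CDH15, MYF5, PYGM, NEB, CFD, PLIN1, PLIN4, CIDEC, ADRB3, KREMEN1, SFRP1 and SFRP5 were added after their values were seen. The gene, the 21 lists and the alternatives were chosen with earlier results of these data known. A marker list and a list member that the rule would name are not reported here.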

Additional observations from a re-analysis of the deposited data

How the results depend on the processing

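The SHISA2 difference of -5.01 moved by less than 0.81, the pooled SD of SHISA2 itself, under each alternative run. That is a description, since the gene was chosen for this difference. The breeds did not overlap, so leaving out a library could not turn its direction. Every replicate number occurs in both breeds, so the replicate block could not change it either. The difference was -5.32 with a pseudocount of 0.1 FPKM, -5.10 after quantile normalization and -5.35 on scaled counts, an alternative added after seeing the data. With each library left out it was -5.47 to -4.38. Separate fits over all genes called 69 with no filter, 205 with the replicate number as a block and 27 to 524 with each library left out, against 360. The SHISA2 rank among the lowest log2 fold changes, 6, ran from 4 to 12. The Wnt count of 1 was 0 with a pseudocount of 0.1 FPKM, after quantile normalization, without trend and robust settings, with no filter, with the 7 abundant genes kept and with the replicate block. It was 2 on scaled counts and 0 to 2 with each library left out. The somite count of 1 was 0 after quantile normalization, without trend and robust settings, with no filter, with a filter at 5 FPKM, with the 7 genes kept and with the replicate block, and 0 to 1 with each library left out. The fusion count of 0 was 1 after quantile normalization and 0 to 1 with each library left out. The count of 0 beside SHISA2 was 1 with a filter at 5 FPKM. The cause of these changes was not tested. Replicate numbers are not stated to pair libraries: same-numbered deviations correlated across genes at 0.10, -0.01 and 0.11, and Wannanhua 2 did not correlate best with its own number. The planned edgeR fits with TMM or RLE scaling were not run, because the searches for whole reads behind the scaled counts disagreed. Multiples of each library's most frequent value near 1 were whole, within 0.01 or 1e-05 of the multiple, for 99.7% to 99.8% of values above 0 in all 6 libraries, while a second search, from the lowest values, failed in 4 of 6. Depth limits the Wannanhua 1 value most, at a scaled count of 57.0.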

Other observations

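A pair of genes without a symbol, named here after their values were seen, ranked below SHISA2 by log2 fold change and had the same order of levels in the Wannanhua libraries. ENSSSCG00000030134 stood at 1.16, 63.6 and 205 FPKM in Wannanhua 1, 2 and 3 and at 2245, 1196 and 1145 FPKM in Yorkshire 1, 2 and 3. ENSSSCG00000021650 stood at 1.04, 69.8 and 181 FPKM in Wannanhua 1, 2 and 3 and at 1598, 1053 and 1037 FPKM in Yorkshire 1, 2 and 3. In both, as in SHISA2, Wannanhua 1 was the lowest library and Yorkshire 1 the highest, though in both the spread within Wannanhua was wider than that of SHISA2. Neither was called (limma adjusted p = 0.119 and 0.126), and whether the pair is independent was not tested. The other unnamed genes ranked below SHISA2 did not share this order. ENSSSCG00000018079 was listed at 0 in Wannanhua 2 and 3, and ENSSSCG00000016944 at 0 in Wannanhua 1 and 3.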
